A study of Mus musculus with 16 samples.

Results

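The later part of the dark phase, from ZT18 to the approach of lights on at ZT0, was examined in a promoter capture Hi-C series of the liver of adult mice, as the number of chromatin contacts that each promoter had at the start and at the end of that interval. ZT is zeitgeber time, counted in hours from lights on at ZT0, with lights off at ZT12. The animals were male, wild type C57BL/6 mice under cycles of 12 h light and 12 h darkness, fed ad libitum, and both groups shared all of these conditions. The labels give an age of 8 weeks, which by the study's methods was the age at the start of 2 weeks in this light cycle. Each timepoint held 3 pools of 2 livers, named A, B and C, and pool A was sequenced on 2 lanes. The interval therefore used 8 of the 16 samples of the series. The pools of a timepoint were merged by the authors before interactions were called, so each timepoint is 1 list of fragment pairs with 1 score per pair, and no value below has a replicate error or a test.

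All pairs of HindIII fragments listed at ZT18 or at ZT0 were taken without regard to their order in the list. There were 193722 such pairs among the 247177 of the 4 timepoints, and 17347 of the 18165 promoter fragments of the series had a contact in at least one of these lists. A promoter fragment is a fragment that a list names first, which is the captured end. Scores are those of CHiCAGO, which weighs the read number of a fragment pair against that predicted from distance and technical noise, and the lowest score listed was 5. A pair is called kept when both lists held it, gained when only ZT0 held it, and lost when only ZT18 held it. A pair missing from a list had no score of 5 or more there, which does not show that the contact was absent. Whether such a pair was scored lower or not scored cannot be read from the lists. Read depth is not in the lists. The study reports read statistics for its libraries, and these were not set against the scores or list lengths here. The timepoints are those of the labels. In a table that accompanies the study, the total of the list labelled ZT6 stands under ZT18, that of ZT12 under ZT6 and that of ZT18 under ZT12. That table puts these 3 labels in doubt. The contacts that the study's text describes follow the labels. It gives the clock gene Arntl 2 contacts at ZT18, 3 at ZT0 and none at ZT6 or ZT12, as the labelled lists do. It also gives Nr1d1 more contacts around ZT6, where the labelled list has 10. With the list labelled ZT6 as ZT18, Arntl would have 0 at ZT18. The other reading, with the list labelled ZT6 as ZT18, is given beside the main promoters and lists that it turns or makes much smaller.

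In the nucleus, promoters meet distant enhancers, other promoters and structural sites through looping of the chromatin fibre, and capture Hi-C records these meetings from the side of the promoter. In the liver clock, Clock and Arntl (Bmal1) act from E-boxes on the Per, Cry, Nr1d1 and Dbp genes, whose products repress them or drive further rhythms through D-boxes and through the ROR and REV-ERB response element (RORE). The end of the night is the close of the feeding phase in mice and precedes the daytime fast, when the liver moves from storing to releasing fuel.

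Letters of 9 regions are shown so that promoters and contacts described below can be read beside their sequence. The first set is the 200 bases before the annotated start of 5 genes (mm9, read in the direction of the gene). Capitals mark the E-box CACGTG, the D-box TTATGTAA, the RORE TAGGTCA, its half-site AGGTCA and the core AGGGGGC of the CTCF site, each on either strand.
Per1 promoter, chr11:68908519-68908718, plus strand: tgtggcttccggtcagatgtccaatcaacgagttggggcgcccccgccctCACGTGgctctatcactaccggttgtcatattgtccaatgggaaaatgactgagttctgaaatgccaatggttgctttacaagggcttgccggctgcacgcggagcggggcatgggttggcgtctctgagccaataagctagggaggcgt
Per2 promoter, chr1:93355908-93356107, minus strand: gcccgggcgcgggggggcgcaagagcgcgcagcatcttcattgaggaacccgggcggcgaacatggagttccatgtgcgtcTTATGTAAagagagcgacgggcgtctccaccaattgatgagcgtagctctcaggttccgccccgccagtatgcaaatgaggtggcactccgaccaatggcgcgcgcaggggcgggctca
Dbp promoter, chr7:52960258-52960457, plus strand: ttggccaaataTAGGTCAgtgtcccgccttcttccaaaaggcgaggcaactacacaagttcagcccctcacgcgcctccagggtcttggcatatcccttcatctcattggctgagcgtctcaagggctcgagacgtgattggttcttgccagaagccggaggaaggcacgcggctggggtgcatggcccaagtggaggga
Bhlhe41 promoter, chr6:145814079-145814278, minus strand: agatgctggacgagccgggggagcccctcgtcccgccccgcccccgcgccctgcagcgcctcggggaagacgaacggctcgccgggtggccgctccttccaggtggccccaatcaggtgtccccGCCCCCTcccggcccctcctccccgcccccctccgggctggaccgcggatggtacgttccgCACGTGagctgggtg
Ppp1r3b promoter, chr8:36438595-36438794, plus strand: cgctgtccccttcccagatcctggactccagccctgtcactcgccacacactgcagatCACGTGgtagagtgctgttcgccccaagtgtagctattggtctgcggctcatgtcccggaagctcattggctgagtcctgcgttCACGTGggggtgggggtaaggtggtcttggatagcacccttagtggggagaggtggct
An E-box stood in the windows of Per1 and Bhlhe41 and at 2 places in that of Ppp1r3b, against 5.58% of the same window over 22362 protein-coding genes. The D-box of the Per2 window was held by 0.711% of these windows and the RORE of the Dbp window by 1.75%. The Bhlhe41 window also held the CTCF core, as did 9.62% of all windows. Windows of other promoters described below were read in the same way. Those of Arntl, Npas2, Tef, Hlf, Nfil3, Ppara, Lpin1, Nr1h3, Cirbp and Creld2 held no marked motif. The window of Rbm3 held the CTCF core alone. The printed windows are thus a selection and do not stand for the promoters described below. These matches are letters only and carry no statement about binding.

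The second set is restriction fragments, short enough to print, at the far end of contacts of clock and fuel genes (mm9, plus strand, marked in the same way).
Ppara, lost, intron part of the fragment, chr15:85662850-85663026, plus strand: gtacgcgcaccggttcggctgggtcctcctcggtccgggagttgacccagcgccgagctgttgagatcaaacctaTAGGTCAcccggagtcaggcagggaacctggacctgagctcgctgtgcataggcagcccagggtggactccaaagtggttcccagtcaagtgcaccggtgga
Per2, lost, chr1:93385358-93385605, plus strand: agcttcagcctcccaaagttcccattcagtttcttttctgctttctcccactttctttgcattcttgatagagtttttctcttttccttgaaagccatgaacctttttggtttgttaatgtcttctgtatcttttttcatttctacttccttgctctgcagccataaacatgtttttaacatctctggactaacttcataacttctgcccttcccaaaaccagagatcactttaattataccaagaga
Bhlhe41, gained, chr6:146071102-146071263, plus strand: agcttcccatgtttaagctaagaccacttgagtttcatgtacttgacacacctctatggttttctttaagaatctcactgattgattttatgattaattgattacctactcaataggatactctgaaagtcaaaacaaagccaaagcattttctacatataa
Npas2, kept, chr1:39160092-39160384, plus strand: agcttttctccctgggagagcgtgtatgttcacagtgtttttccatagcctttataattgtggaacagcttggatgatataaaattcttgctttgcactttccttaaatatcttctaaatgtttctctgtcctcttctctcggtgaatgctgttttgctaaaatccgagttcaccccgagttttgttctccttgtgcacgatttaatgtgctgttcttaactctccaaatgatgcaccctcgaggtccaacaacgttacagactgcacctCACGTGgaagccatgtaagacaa
The Ppara fragment lies in Ttc38, its printed part is intronic and it held a RORE. Its pair with Ppara scored 8.34 at ZT18 and was not listed at ZT0. The Per2 fragment lies between genes and had a score of 5.01 at ZT18 alone. The Bhlhe41 fragment is inside an intron of Itpr2 and had a score of 6.11 at ZT0 alone. The Npas2 fragment lies between genes 90.1 kb from its promoter, held an E-box, and scored 5.42 at ZT18 and 5.39 at ZT0.

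Of the 193722 pairs, 103887 were kept, 47460 were lost and 42375 were gained. The kept share was 53.6% (95% Wilson interval 53.4 to 53.8%, which covers counting error only and treats pairs of a promoter as independent). Across the other neighbouring timepoints the kept share was 53.3% from ZT0 to ZT6, 53.6% from ZT6 to ZT12 and 55.6% from ZT12 to ZT18. The approach of lights on thus stood within the range of the other steps for this measure. Among kept pairs, the score was higher at ZT0 for 48205 (46.4%) and lower for 55448 (53.4%), and the median change from ZT18 to ZT0 was -0.16.

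Gained and lost pairs differed in their reach. The median distance was 131 kb for kept pairs (interval 130 to 132), 169 kb for lost pairs (167 to 170) and 196 kb for gained pairs (195 to 198). Below 25 kb, 1840 pairs were gained and 3116 were lost, and between 25 and 50 kb 1911 were gained and 3601 were lost. Between 150 and 250 kb the numbers were 10659 and 10673, and between 250 and 500 kb they were 11642 and 11245. The list of ZT0 was shorter mainly at distances below 150 kb, with 86.3 contacts per 100 of ZT18 at 25 to 50 kb and 101 per 100 at 250 to 500 kb. Pairs of promoters made up 17.4% of kept and 14.1% of gained pairs. Pairs between chromosomes numbered 45 among kept, 58 among gained and 40 among lost pairs. With the list labelled ZT6 read as ZT18, the median distance was 188 kb for both gained and lost pairs.

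**Figure D1:**
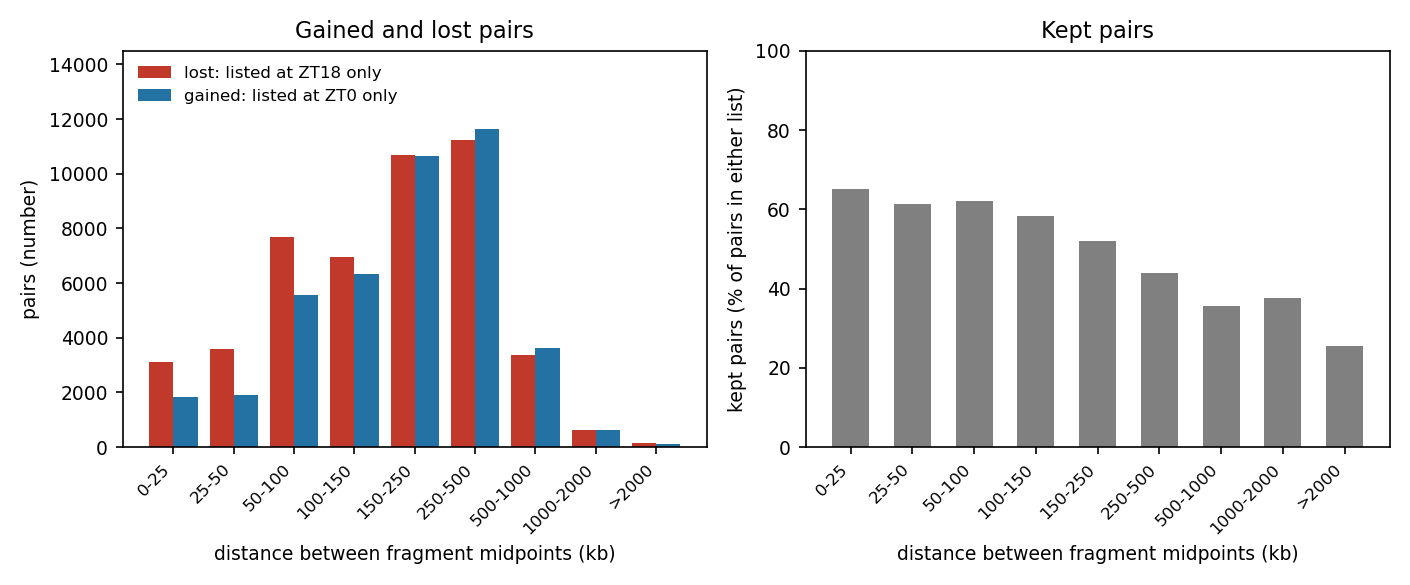
Left, number of pairs gained (blue) and lost (red) from ZT18 to ZT0 by the distance between fragment midpoints in kb; right, kept pairs as a percentage of all pairs in either list by the same distance. Lost pairs outnumber gained pairs up to 150 kb, the numbers are close at 150 to 250 kb (10673 and 10659), and the kept share goes from 65.2% within 25 kb to 35.5% at 500 to 1000 kb.

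Many one-sided pairs had a neighbour in the other list. Of the gained pairs, 71.6% had a ZT18 contact of the same promoter whose other end lay within 10 kb, and of the lost pairs 68.8% had such a contact at ZT0. Pairs that came and went were also met at the 2 timepoints outside the interval. Of the gained pairs, 37.8% were listed at ZT6 and 34.2% at ZT12, and of the lost pairs 37.5% and 40.5% were. Lost pairs were thus listed more often than gained pairs at ZT12, by the labels the timepoint before ZT18 (intervals 40.1 to 40.9% against 33.8 to 34.7%). Of gained pairs 47.8% and of lost pairs 44.2% were in neither list. These shares were not counted under the other reading of the labels.

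Strong pairs are those with a score of 7 or more. Of 72562 strong pairs at ZT0, 7568 were absent at ZT18, which is 10.4% (10.2 to 10.7%). Of 75834 strong pairs at ZT18, 8570 were absent at ZT0, which is 11.3% (11.1 to 11.5%). Over the other steps the gained share was between 9.41 and 12.3% and the lost share between 9.65 and 11.6%. Such pairs were rare at high scores. Of pairs with a score of 15 or more, 54 of 11396 at ZT0 and 18 of 11939 at ZT18 were absent from the other list. One-sided strong pairs were long, with 71.6% of the gained and 60.9% of the lost over 150 kb against 43.9% of kept pairs. Of the strong gained pairs 27.6% were listed at neither ZT6 nor ZT12, and of the strong lost pairs 22.8%. With an other end within 10 kb counted as the same contact, 2.01% of strong ZT0 pairs and 2.46% of strong ZT18 pairs remained one-sided.

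The highest one-sided scores joined fragments of different chromosomes. The promoter fragment of Gm11399 and Gm11400 at chr11:3039562 had a score of 595.14 with a fragment at chr5:33073588 at ZT0 and was not listed with it at ZT18. At ZT18 the same promoter fragment had a score of 383.02 with a fragment of chromosome 18, which was not listed with it at ZT0. The neighbouring fragment of Sfi1, a centrosome gene, showed the same exchange, with 164.06 on chromosome 5 at ZT0 and 322.63 on chromosome 18 at ZT18. At ZT6 all 4 of these pairs were listed, with scores from 170.95 to 578.99, and at ZT12 none was. A mitochondrial fragment paired with one of chromosome 8 at ZT0 with a score of 58.62. The ZT0 list also paired Ugt1a1 with a fragment of chromosome 10 at 34.65 and Gm15056 with one of chromosome 5 at 33.14. Whether reads that map to several places contribute to these pairs was not tested.

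Within chromosomes, the strongest pair gained at ZT0 joined Vwa5b2 to the miRNA gene Mir1224, 11.9 kb away, with a score of 44.44. The Vwa5b2 fragment had 10 contacts at ZT0 and none at ZT18, 2 at ZT6 and none at ZT12, and 9 of the 10 were strong, among them one of 19.97 with Camk2n2. Hibadh, an enzyme of valine breakdown, paired with Tax1bp1 at 31.76, and this pair was also listed at ZT6 (33.07) and ZT12 (15.80). The fragment of the histone genes Hist1h2bh and Hist1h3f paired with Hist1h4b at 28.10 over 211 kb. Eif2ak3, the PERK kinase of the unfolded protein response, paired with SNORA5 at 20.70. Bcar3 paired with a U1 gene at 20.19.

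Of the pairs listed at ZT18 and missing at ZT0, the strongest within a chromosome led to 1 fragment at chr1:90119291, 12.3 kb from that of Ugt1a1. It had a score of 34.94 with the fragment of Hjurp and Trpm8 and of 27.84 with Ugt1a1, which conjugates bilirubin, and neither pair was listed at ZT6 or ZT12. At ZT0, Ugt1a1 was paired with another fragment, 42.4 kb away, at a score of 20.11, which was missing at ZT18 and listed at both other times. Ipo7, an importin, paired with Snora23 at 26.53. Map3k7, the kinase TAK1, paired with Casp8ap2 at 19.18 over 654 kb, and Tapt1 with Qdpr, which regenerates tetrahydrobiopterin, at 17.32 over 1222 kb. A fragment of chromosome 13 paired with that of Gm17658 and Hist1h4d at 17.27 over 1804 kb. These 4 pairs were listed at ZT6 and ZT12 too.

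Per promoter, contacts were counted from both ends of each pair. All promoters together had 176541 contacts at ZT18 and 170304 at ZT0, which is 96.5 per 100. A net gain was seen for 6288 promoters (36.2%) and a net loss for 7781 (44.9%), with a median net change of 0. Among the 6307 promoters with 10 or more contacts in a list, the shares were 40.1% and 51.6%. A net gain of 5 or more contacts was seen for 968 promoters, 5.58% of all, and a net loss of 5 or more for 1417, 8.17% of all. When the longer list was cut by score to the length of the shorter, which makes gained and lost pairs equal in number by construction, the promoter numbers were 1166 and 1151.

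Scores of kept pairs, which leave the net count as it is, leaned the same way. Of 797 promoters with a net gain of 5 or more and at least 5 kept contacts, 604 had a median score change above 0 over the kept pairs. Of 1168 promoters with a net loss of 5 or more, 191 did, and over all 7004 promoters with at least 5 kept contacts 2941 did. The scores of a promoter share its background estimate, so kept and one-sided pairs of 1 promoter are not independent.

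**Figure D2:**
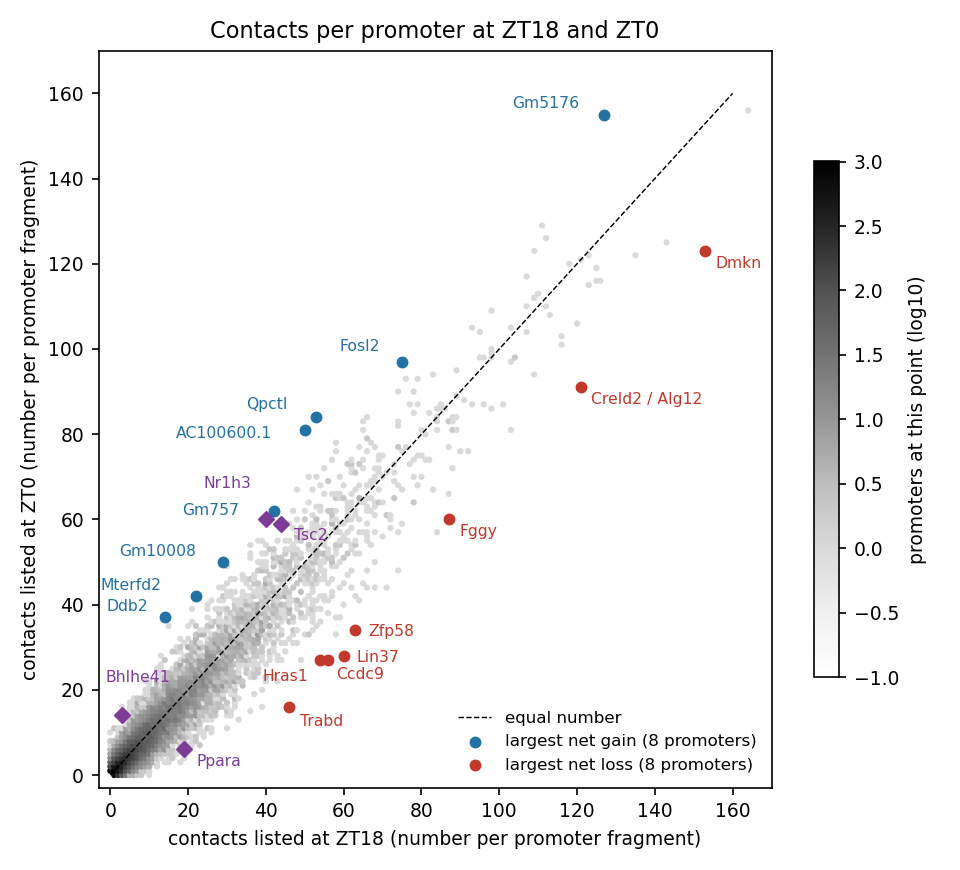
Contacts listed at ZT18 (horizontal axis) and at ZT0 (vertical axis) for each promoter fragment, in numbers; grey shade gives the number of promoters at a point on a log10 scale, blue and red points are the 8 promoters with the largest net gain and loss, and purple diamonds are Ppara, Bhlhe41, Nr1h3 and Tsc2. Most promoters lie along the line of equal numbers, and Qpctl (53 to 84) and Trabd (46 to 16) lie far from it.

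The largest net gains were those of Qpctl and AC100600.1. Qpctl, a Golgi enzyme that cyclises glutaminyl ends of proteins, had 53 contacts at ZT18 and 84 at ZT0, with 37 gained and 6 lost, but also 81 at ZT6, which leaves a net gain of 3 under the other reading. The fragment of AC100600.1 went from 50 to 81 contacts, with 109 at ZT6, so its net change would be negative under that reading. Gm5176 had 127 and 155. Ddb2, which recognises ultraviolet damage in DNA, had 14 contacts at ZT18 and 37 at ZT0, with 16 at ZT6 and 33 at ZT12. With a minimum score of 7 its net gain was 3. Fosl2, a subunit of the AP-1 transcription factor, had 75 and 97. Gm10008 had 29 and 50, Mterfd2 of the mitochondrial termination factor family 22 and 42, and the fragment shared by Gm757 and Rnf208 42 and 62. Further promoters tied with the last 2 at 20, among them Nr1h3, and ties were broken by position in the genome. In all 8, more of the kept pairs had higher than lower scores at ZT0, and the median change lay between 0.44 and 1.81. At ZT6, Gm757 had 65 contacts, so its net change would also be negative under the other reading.

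Net losses reached 32 contacts. The fragment of Lin37, a subunit of the DREAM cell cycle complex, which it shares with Psenen, a subunit of gamma-secretase, had 60 contacts at ZT18 and 28 at ZT0, with 29 at ZT6, which leaves a net change of -1 under the other reading. Dmkn, a secreted protein of the epidermis, had 153 and 123. The fragment of Creld2, an ER protein induced by unfolded proteins, and Alg12, a mannosyltransferase of N-glycan assembly, had 121 and 91. Trabd went from 46 to 16, the fragment of Ccdc9 and the BCL2 family gene Bbc3 (Puma) from 56 to 27, and Zfp58 from 63 to 34. Fggy, a carbohydrate kinase, had 87 and 60, and the Ras gene Hras1 54 and 27. Over all 8 fragments, kept pairs had mostly lower scores at ZT0, with 69 of 87 lower at Creld2 and 85 of 118 at Dmkn. At ZT6, Trabd had 43 contacts and Bbc3 had 56, close to ZT18, whereas Creld2 had 90 and Hras1 had 20, so that these last would have no net loss under the other reading. That reading left a net change of -7 for Zfp58 and -11 for Dmkn.

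Few promoters were listed in only one of the 2 lists with more than 1 or 2 contacts. The glutamate receptor gene Grik3 had 10 contacts at ZT18 and none at ZT0, and Ilkap had 8 and none. Hpd, which acts in tyrosine breakdown, had 6 and none, with none at ZT6 and 4 at ZT12. Apart from Vwa5b2, the keratinocyte gene Sprr2b and Pigc, of the glycosylphosphatidylinositol anchor pathway, had 8 contacts at ZT0 and none at ZT18, and Pigc also had 8 at ZT6. Of the 17347 promoters, 1045 were listed at ZT18 only and 866 at ZT0 only, with 1582 and 1241 contacts between them.

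The core clock and output regulators had 348 contacts at ZT18 and 310 at ZT0 over 20 promoter fragments, or 89.1 per 100. Net losses were seen at 12 (60.0%, interval 38.7 to 78.1%) and net gains at 7 (35.0%), where all promoters had 44.9% and 36.2%, so the shares were not distinguishable from these at this number of promoters. The difference lay at close range: up to 150 kb the list went from 167 to 128 contacts and beyond it from 181 to 182, where all promoters had 93.1 and 100 per 100. The even count beyond 150 kb rested in part on Bhlhe41, which gained 12 pairs and lost 1, most of the gained ones beyond that distance. The start of Rora lay on no listed fragment. Net losses of 5 or more included those of Hlf, Dbp, Tef, Per1 and Bhlhe40, and a net gain of 5 or more at Bhlhe41 alone.

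Dbp, Tef and Hlf encode the PAR bZIP activators that bind D-boxes, and each had fewer contacts at ZT0 than at the other 3 timepoints. Dbp (chr7:52956740-52963554) had 19 contacts at ZT18 and 11 at ZT0, after 25 at ZT6 and 24 at ZT12. It lost those with Ftl1, Bcat2 and the fragment of Ppp1r15a, among others, and its pair with Bax went from 10.36 to 5.67 while that with Fgf21 went from 11.31 to 8.99. Tef had 17 and 9, with 18 and 17 at ZT6 and ZT12, and 8 of its 10 lost pairs lay 54.7 to 99.3 kb downstream. Hlf had 79 and 68, with 85 and 95 at the other times, and 35 of its 58 kept pairs had lower scores at ZT0. Nfil3, which represses at the same sites, had 32 contacts at ZT18 and 35 at ZT0, with 38 at ZT6, which turns its direction under the other reading, and 42 at ZT12.

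The Period genes, whose proteins inhibit Clock and Arntl, followed their own course. Per1 (chr11:68908170-68909614) had 19 contacts at ZT12, 12 at ZT18 and 5 at ZT0, and 7 at ZT6. With a minimum score of 7 it had no net change. Its strongest loss was a fragment 315 kb away, next to Kdm6b, with 9.82 at ZT18. Per2 (chr1:93348814-93356668) had 19, 13 and 9 from ZT12 to ZT0 and 10 at ZT6, and of its 9 kept pairs 8 had lower scores at ZT0. Per3 had 3 and 4, with 6 at ZT6. Cry1 had none and 1, with 2 at ZT6, and Cry2 had 7 and 5. The E-box of the Per1 window and the D-box of the Per2 window are printed above.

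The activators had more contacts at the end of the night, in small numbers. Arntl (chr7:120349173-120358837) had none at ZT6 or ZT12, 2 at ZT18 and 3 at ZT0, and both kept pairs, at 39.6 and 50.6 kb downstream, had higher scores at ZT0 (5.43 to 6.12 and 6.28 to 7.72). Npas2, which can stand in for Clock, had 8 contacts at ZT6 and ZT12, 12 at ZT18 and 14 at ZT0. All but 3 of its 15 pairs in the interval lay 89.1 to 191 kb upstream, and a pair at 178 kb went from 9.10 to 14.63. Clock itself had 1 contact at ZT18 and none at ZT0. Differences of 1 or 2 contacts cannot be set against any replicate error here.

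The repressors Nr1d1 and Bhlhe40 had slightly fewer contacts at ZT0. Nr1d1, the repressor REV-ERB alpha, had 8 contacts and 6, though 5 of its 6 kept pairs had higher scores at ZT0. Nr1d2 had 1 and 2, with 3 at ZT6. Bhlhe40, an E-box repressor, had 113 and 108, with 63 of its kept pairs at lower and 30 at higher scores at ZT0.

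Bhlhe41 (chr6:145809941-145821817), a second E-box repressor, had 3 contacts at ZT18 and 14 at ZT0, with 4 at ZT6 and 8 at ZT12. Its 12 gained pairs all lay on one side of the promoter, 105 to 409 kb away, in the direction of Itpr2. Their scores were low, from 5.11 to 7.22, and with a minimum of 7 the promoter had no net change. The kept pair at 405 kb had a lower score at ZT0, 8.60 against 6.17.

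**Figure D3:**
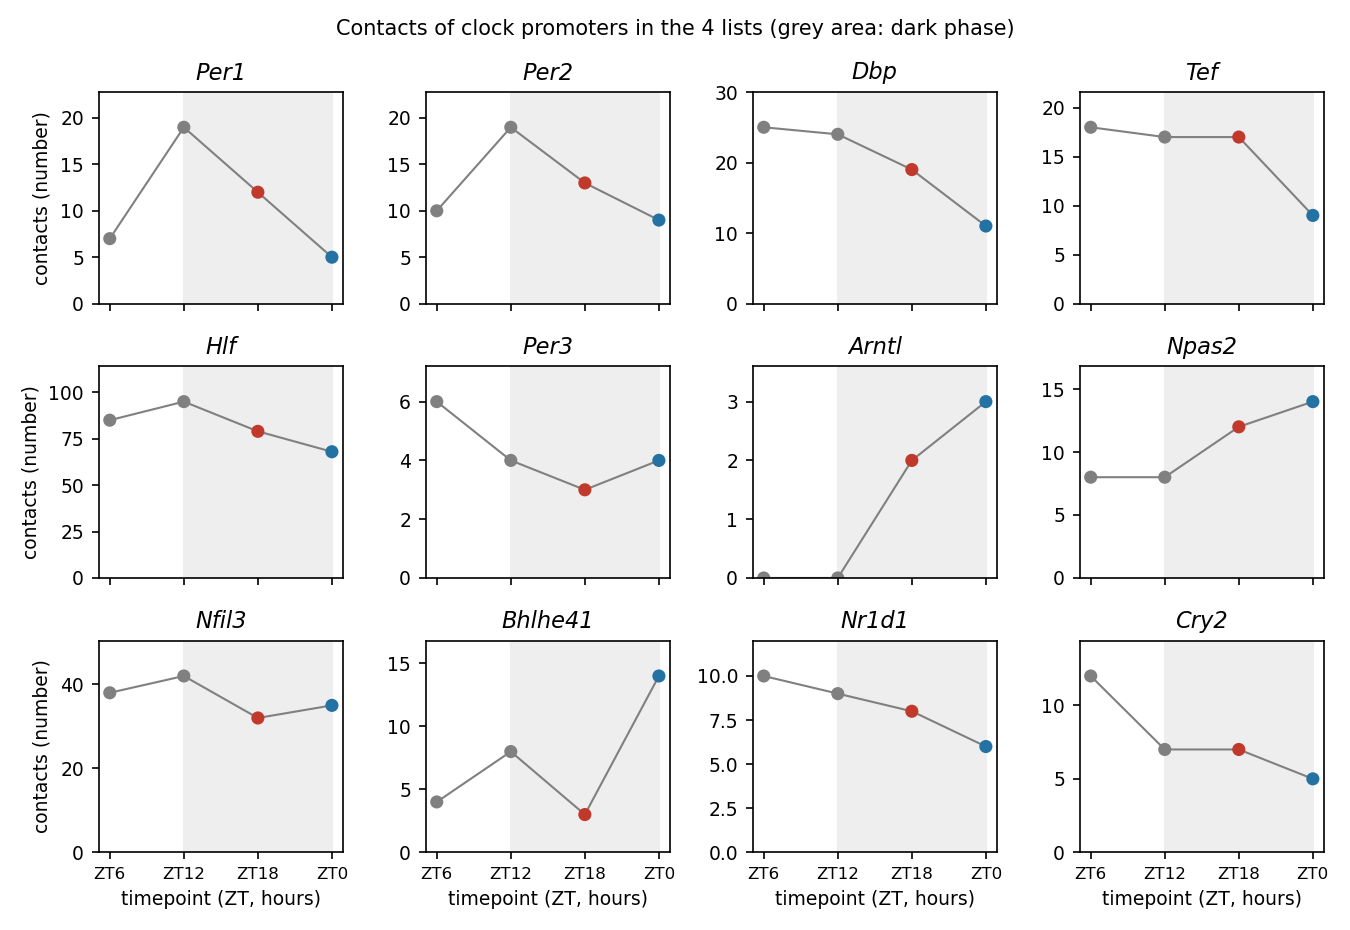
Number of contacts of 12 clock promoters in the lists of ZT6, ZT12, ZT18 (red) and ZT0 (blue); the grey area is the dark phase and each panel has its own vertical axis from 0. By the labels, Per1, Per2 and Dbp are lower and Arntl and Npas2 higher at each step from ZT12 to ZT0; with ZT6 read as ZT18, Dbp has 25 and Arntl 0 at ZT18. Bhlhe41 is highest at ZT0 with 14.

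Among the gene lists, all 12 of liver metabolism, signalling, transcription and protein folding had fewer contacts at ZT0, and 9 of the 12 lists lay below the 96.5 per 100 of all promoters. The lists were chosen with earlier results of these data known, so their values are descriptions and not comparisons planned beforehand. The sign turned under at least one other setting for insulin signalling, hepatocyte transcription factors, amino acid genes and plasma proteins, which were all at 96.0 per 100 or more. ER protein folding had 395 and 322 (81.5 per 100), with 16 of 21 promoters at a net loss (76.2%) and 4 at a net gain. All promoters had 44.9% and 36.2%, and those with 10 or more contacts in a list 51.6% and 40.1%. Beside Creld2, P4hb, a protein disulfide isomerase, had 24 contacts at ZT18 and 13 at ZT0. The chaperone Hsp90b1 (Grp94) had the largest net gain of the list, 16 and 19. Of the kept pairs of the list, 84 had higher and 166 lower scores at ZT0. Read with the list labelled ZT6 in the place of ZT18, this group had 95.8 per 100, close to the 95.5 of all promoters. Under the same reading the net change was -5 for heat shock, -1 for cholesterol synthesis and -2 for fatty acid oxidation, where the labels gave -43, -17 and -17.

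Heat shock and cytosolic chaperones had 251 and 208 contacts (82.9 per 100), with 11 net losses (52.4%, interval 32.4 to 71.7%) and 3 net gains among 21 promoters, a share of losses near the 44.9% of all promoters. The largest losses were those of the cold-inducible RNA-binding proteins. Cirbp (chr10:79628324-79630600) had 26 contacts at ZT18 and 14 at ZT0, with 17 and 18 at ZT6 and ZT12, and with a minimum score of 7 its net change was -1, that of Rbm3 -2. Of the 11 kept pairs of Cirbp, 7 had higher and 4 lower scores at ZT0, with a median change of 1.89. The Cirbp pair 182 kb upstream went from 20.16 to 12.63. Several pairs with promoters of that gene-rich stretch had higher scores at ZT0, as with Arid3a, 7.97 and 11.83. Rbm3 had 28 and 17, with 13 at ZT6, a net gain under the other reading, and 25 at ZT12, and its pair with Tbc1d25 went from 15.12 to 7.35. The heat shock genes proper differed less, with Hspa8 at 15 and 11, Hsp90aa1 at 13 and 13, Hspa1b at 8 and 8, and Dnaja1, the largest net gain tied with Cct5 and Cacybp, at 26 and 27.

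Glucose and glycogen genes had 332 and 285 contacts (85.8 per 100). A net loss was seen at 15 of 21 promoters, or 71.4%. The share was 44.9% for all promoters and 51.6% for those with 10 or more contacts in a list. With the list labelled ZT6 read as ZT18, the glucose list had 93.4 per 100, with 9 net gains and 10 net losses. Gsk3a, the kinase that restrains glycogen synthase, had 41 and 29, with 26 of 28 kept pairs at lower scores. Pck1, of gluconeogenesis, had 18 and 11, with 10 at ZT6. In the other direction stood Ppp1r3b (chr8:36433879-36440842), a subunit that targets protein phosphatase 1 to glycogen, with 15 contacts at ZT18 and 23 at ZT0. All 15 were kept, 13 of them with higher scores, and 8 were gained, the strongest of them with 8.65, 144 kb upstream. Its pair 168 kb upstream went from 15.64 to 18.70. The 2 E-boxes of its window are printed above, and it had 15 and 20 contacts at ZT6 and ZT12.

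Lipid lists were lower as well by the labels. With the list labelled ZT6 read as ZT18, lipogenesis had 95.6 per 100, close to the 95.5 of all promoters. It then had 10 net gains and 6 net losses, and the net change of Lpin1 was -2. Lipogenesis had 269 and 239 contacts (88.8 per 100), with Lpin1, a phosphatidate phosphatase, at 10 and 2 and Fasn at 27 and 21. Lpin1 lost 6 fragments of 1 stretch 934 to 945 kb away and a fragment at 45.4 kb that scored 10.65 at ZT18 and 23.89 at ZT12. Lpin2 had the largest net gain, 35 and 37. Cholesterol synthesis had 119 and 102 (85.7 per 100), where Fdft1, squalene synthase, had 10 and 3 and Sqle, the next enzyme, had 8 and 14. Bile acid genes had 241 and 201 (83.4 per 100), with Nr5a2 (Lrh-1) at 52 and 37, Cyp7b1 at 34 and 22, and the phospholipid exporter Abcb4 at 11 and 14, with 19 at ZT6.

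Fatty acid oxidation and ketogenesis had 164 and 147 contacts (89.6 per 100). Ppara (chr15:85564704-85575274), the fasting receptor of this pathway, had 19 at ZT18 and 6 at ZT0, with 9 at ZT6 and 17 at ZT12. It lost 14 pairs and gained 1, with Pkdrej at 6.58. All 5 kept pairs had lower scores at ZT0, the strongest with 11.95 and 7.63. Of the lost pairs, 13 lay 10.9 to 133 kb downstream, as far as Gtse1 and beyond, and 6 were strong. At ZT6 the number was already low, so the net loss was 3 with that list in the place of ZT18. Acadl and Acadvl, dehydrogenases of long-chain acyl-CoA, had 9 and 13, and 8 and 12.

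**Figure D4:**
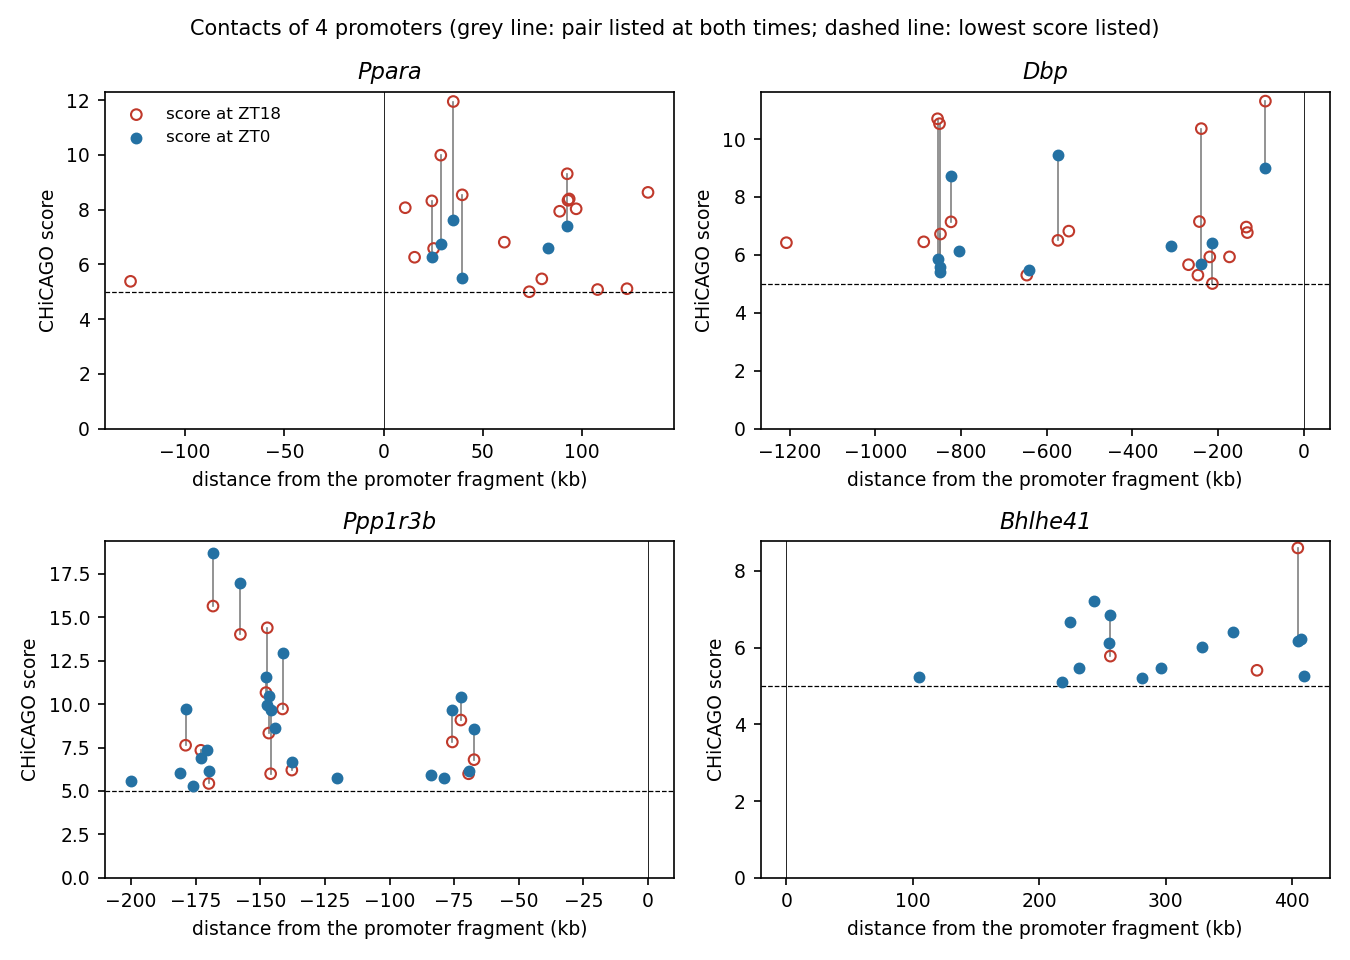
CHiCAGO scores of the contacts of Ppara, Dbp, Ppp1r3b and Bhlhe41 by distance from the promoter fragment in kb (negative is toward lower coordinates), at ZT18 (open red) and ZT0 (filled blue); a grey line joins the scores of a kept pair and the dashed line is the lowest score listed, 5. Kept pairs of Ppara run downward to ZT0 and most of those of Ppp1r3b upward, and the gained pairs of Bhlhe41 lie near the lowest score.

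Other lists stayed close to the whole. Insulin and growth signalling had 547 and 525 contacts (96.0 per 100), with Foxo1 at 88 and 72 and Tsc2, a brake on mTOR, at 44 and 59. Tsc2 had higher scores at ZT0 in 34 of 42 kept pairs, and Mtor itself had 7 and 13. Hepatocyte transcription factors had 301 and 293 (97.3 per 100, and above 100 with equal list lengths). Cebpa had 36 and 27, and all 27 kept pairs had lower scores at ZT0, while Nr1h3 (LXR alpha), the oxysterol receptor, had 40 and 60, with 43 at ZT6 and 41 at ZT12. Xenobiotic metabolism had 178 and 165, with Cyp1a1 at 18 and 12 and Cyp1a2 at 4 and 6. Amino acid and urea cycle genes had 229 and 227, with Gpt at 13 and 5, and Ddc at 15 and 23. Secreted plasma proteins had 396 and 384, with Ttr at 57 and 50 and a net gain of 5 at Fgb and Apoa2.

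Promoter contacts do not measure expression, and cell types cannot be counted from these lists. The hepatocyte genes Alb and Apoa1 had 16 and 16, and 36 and 32 contacts, and Ttr and Hnf4a had 57 and 50, and 5 and 3. Serpina1a, the remaining hepatocyte marker, was not placed on a promoter fragment. Kupffer cell markers had 23 and 24 contacts over 7 promoters and stellate markers 11 and 13 over 5. Endothelial markers had 81 and 76 over 8 promoters, with the largest net gain at Oit3 (30 and 36) and loss at Pecam1 (17 and 12). Cholangiocyte markers had 41 and 29 over 4, of which Krt19 accounted for 18 and 9. The endothelial and cholangiocyte lists turned to a net gain under at least one other setting. Whether a change in cell makeup contributes to any difference between the lists was not tested.

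**Figure D5:**
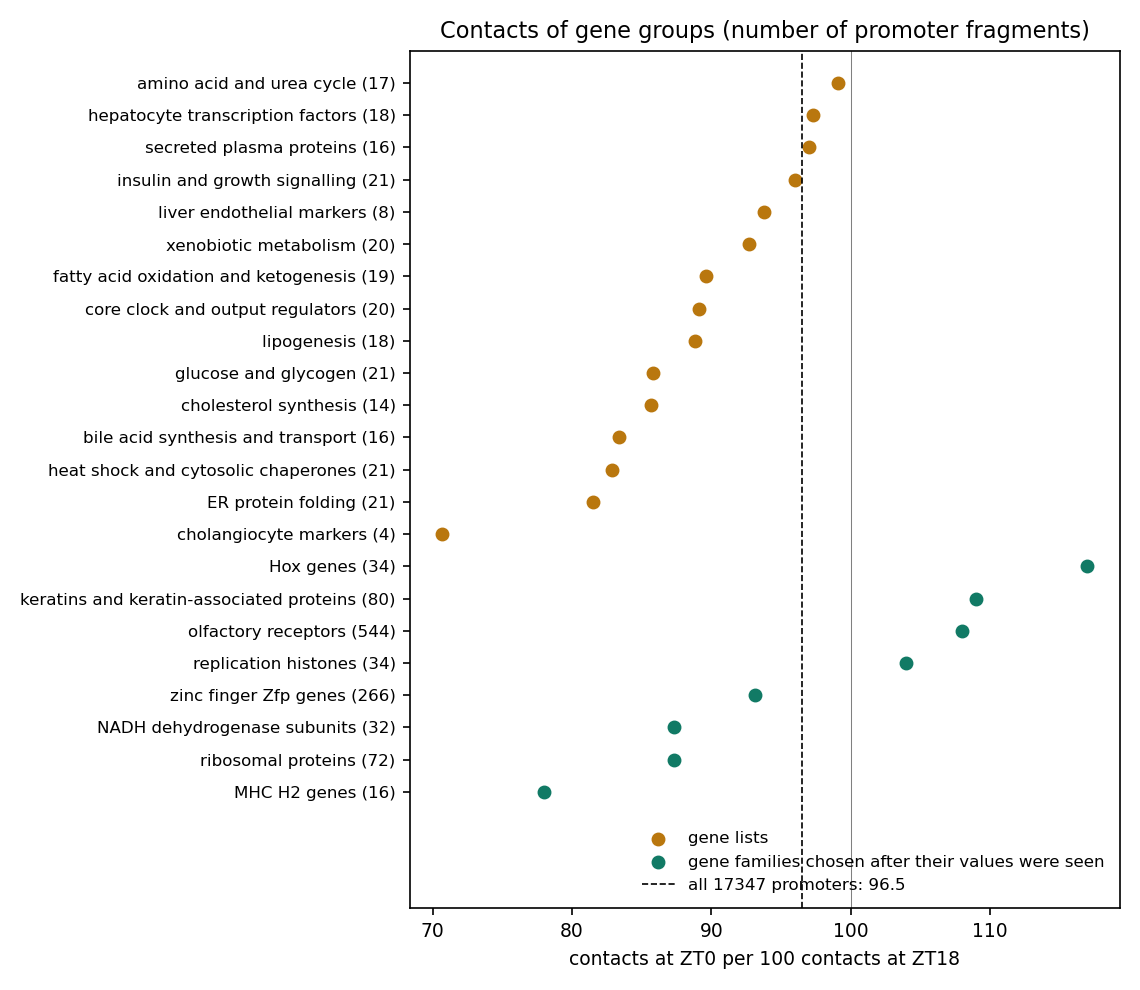
Contacts at ZT0 per 100 contacts at ZT18, summed over the promoter fragments of each gene list (orange) and of 8 gene families chosen after their values were seen (green), with the number of fragments in parentheses; the dashed line is all 17347 promoters, 96.5, and the grey line is 100. The gene lists were chosen with earlier results of these data known. Kupffer and stellate markers, with under 25 contacts, are left out; ER folding lies at 81.5 and Hox genes lie farthest above 100; olfactory receptors and histones fall below it with the list labelled ZT6 in place of ZT18.

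Some clustered gene families had the opposite balance, in a comparison made after the values were seen. Hox genes had 411 contacts at ZT18 and 480 at ZT0 over 34 promoters, with 21 net gains (61.8%) and 9 net losses (26.5%), where all promoters had 36.2% and 44.9%. Keratins and keratin-associated proteins had 1025 and 1118 over 80 promoters. Olfactory receptors had 2008 and 2166 over 544 promoters, though with 2172 at ZT6 and 1845 at ZT12. Replication histones had 1371 and 1421 over 34 promoters. Against these, ribosomal proteins had 732 and 639 over 72 promoters, NADH dehydrogenase subunits 440 and 384 over 32, and H2 genes of the MHC 82 and 64 over 16. With the list labelled ZT6 in place of ZT18, olfactory receptors and histones had fewer contacts at ZT0, by 68 and 20, counted over all their promoters listed at ZT6 or ZT0. NADH dehydrogenase subunits then had 96.5 per 100, close to the 95.5 of all promoters, and ribosomal proteins had 88.8.

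Contacts also differed by gene density. In the fifth of promoters with the fewest protein-coding starts within 250 kb (0 to 4), contacts at ZT0 were 101 per 100 of ZT18, and in the densest (17 to 59) 94.9 per 100. Olfactory receptor, keratin and histone promoters lie in dense clusters (median of 20, 25.5 and 36 starts), denser than those of ribosomal proteins and NADH dehydrogenase subunits (12.5 and 9). Among chromosomes the ratio lay between 92.7 per 100 on chromosome 7 and 100 per 100 on chromosomes 1 and 2, leaving aside chromosome Y and the mitochondrial genome.

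The 3 windows of 1 Mb with the largest net losses lay on chromosome 7. The window chr7:31000001-32000000, with Lin37 and Dmkn, had 2001 contacts at ZT18 and 1776 at ZT0 over 51 promoters, but 1765 at ZT6, a net gain under the other reading. The window chr7:52000001-53000000, with Dbp, Fgf21 and Bax, had 721 and 549, and 39 of its 55 promoters had a net loss. The share was 44.9% for all promoters and 51.6% for those with 10 or more contacts in a list. The window was picked for its net loss, so a high share of losing promoters follows from the choice. Pairs between promoters of a window also count at both ends. The window chr7:148000001-149000000, with Hras1 and the Ifitm genes, had 1129 and 975, with 977 at ZT6. The largest gains were in the keratin cluster at chr11:99000001-100000000, with 1179 and 1313, in chr2:25000001-26000000, with 933 and 1022, and in chr2:91000001-92000000, with 298 and 370. The last holds Nr1h3 and Ddb2 beside the prothrombin gene F2. Of 643 windows with at least 10 promoters, 213 had a net gain and 417 a net loss.

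Circadian genes were taken from the study's own list, which was chosen on RNA of the same experiment, and were grouped by acrophase, the timepoint of highest expression. Promoters of acrophase ZT0 had 3016 contacts at ZT18 and 2843 at ZT0 (94.3 per 100, n = 196 promoters). Those of acrophase ZT18 had 2072 and 1900 (91.7 per 100, n = 177), those of ZT12 had 5119 and 4705 (91.9, n = 428) and those of ZT6 had 3634 and 3404 (93.7, n = 290). A net loss was seen at 52.6% of promoters of acrophase ZT0 and 53.1% of acrophase ZT18, against 44.9% of all promoters. Both shares were near the 51.6% of promoters with 10 or more contacts in a list. The groups thus differed little from each other, and the promoters that peak at lights on did not have more contacts at ZT0. The study also gives a subset of its genes that match a published set with a rhythm in intron reads. In this subset, promoters of acrophase ZT0 had 1108 and 1080 contacts (97.5 per 100, n = 55), with 24 net gains and 24 net losses. Those of acrophase ZT6, ZT12 and ZT18 had 93.1, 92.4 and 96.3 per 100 (n = 26, 118 and 48).

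Single promoters of these groups had net changes in both directions. At acrophase ZT0 the largest net gains were Ddc (15 and 23), the ubiquitin ligase Dtx4 (11 and 19), Loh12cr1 (44 and 51), B3gat3 of proteoglycan synthesis (52 and 59) and Cnnm3 (24 and 30). The largest net losses were the fragment of Sco2, which serves cytochrome c oxidase assembly, and Tymp (56 and 38), Repin1 (29 and 16), Tmie (26 and 15), the protein kinase A subunit Prkaca (31 and 22) and Nme2 (63 and 54). At acrophase ZT18 the gains were Tspan4 (27 and 39), Hist2h3c2 (6 and 17), Ints3 of the Integrator complex (48 and 56), the glycolytic enzyme Gpi1 (11 and 19) and Ppp1r3b (15 and 23). The losses were Ganab, the glucosidase II of ER glycan trimming (39 and 16, with none gained), Hapln4 (36 and 23), Taf1c of RNA polymerase I initiation (18 and 6), P4hb (24 and 13) and Tbl2 (33 and 23). Under the other reading the direction turned for Loh12cr1, Prkaca, Hist2h3c2, Ints3 and Tbl2, which had 55, 19, 20, 57 and 21 contacts at ZT6, and Cnnm3 had no net change. That reading left a net change of 1 for Ddc and -1 for Sco2.

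By the labels, far ends outside promoters differed slightly in sequence. Their GC content over 1000 bases at the fragment centre had a median of 43.2% in 16324 fragments with gained contacts only, 44.2% in 17342 with lost contacts only and 44.6% in 56438 with a kept contact, and the middle range was 39.9 to 46.5% (interquartile) in the first group. Of these fragments, 43.1%, 39.5% and 40.2% had their centre outside genes. The CTCF core was found in 8.87% of gained-only windows (8.44 to 9.32%) and 10.2% of lost-only windows (9.73 to 10.6%), and the E-box in 10.9% (10.4 to 11.4%) and 11.9% (11.5 to 12.4%). The D-box was found in 4.99% (4.66 to 5.33%) and 4.57% (4.27 to 4.89%). GC content ran with these shares, and its part in them was not tested. With the list labelled ZT6 read as ZT18, the median GC content was 43.6% for gained-only and 43.4% for lost-only ends. The difference by the labels was thus absent, and motif shares were not counted under that reading.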

How the data were processed

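Promoter capture Hi-C libraries of 3 liver pools per timepoint were processed by the authors: reads were mapped to mm9 and filtered with HiCUP, pools were merged, and interactions were called with CHiCAGO (versions not given in the sources used here). The deposited values are CHiCAGO scores of at least 5, 1 per fragment pair and list. Reads and pools could not be separated, so no replicate error, paired fit or test was possible. A deeper timepoint can pass more pairs, and depth was not taken into account here.

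Timepoints follow the labels. In a table that accompanies the study, some list totals stand under other timepoints, and by it the list labelled ZT6 would be ZT18. This reading was run as an alternative, although the contacts of Arntl and Nr1d1 in the study's text follow the labels.

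Lists were read in python 3.11.15 with pandas 2.3.3, numpy 2.4.6 and scipy 1.17.1, and plotted with matplotlib 3.10.9. Gene names and starts came from the GENCODE annotation of mm9. Of 129887 listed fragments, 129886 lay between 2 HindIII cuts of this genome. Counting was tested on simulated lists with known answers. Promoters and lists were chosen with earlier results of these data known. Named are the 8 promoters with the largest net change and the 8 highest one-sided pairs in each direction, core clock genes, 5 promoters per direction at acrophases ZT0 and ZT18, the largest change of each list and 3 windows per direction; further names were chosen after their values were seen. One clock gene of the lists is not reported here.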

Additional observations from a re-analysis of the deposited data

How the results depend on the processing

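No paired analysis was possible because each timepoint is 1 merged list, and for the same reason no pool could be left out. The kept share of 53.6% was 54.8% among pairs with a score of 7 or more, 55.7% from 10, 53.3% with the list labelled ZT6 read as ZT18, and 86.1% where an other end within 10 kb counted as the same. Strong pairs at ZT0 alone were 17.6% from a score of 6, 6.14% from 8, 2.01% with the 10 kb tolerance and 9.69% with ZT6 read as ZT18, and those at ZT18 alone 19.3%, 6.24%, 2.46% and 12.3%. With a score of 7 or more in both lists, 383 promoters had a net gain of 5 or more and 682 a net loss. The median distance of gained pairs was 185 kb from a score of 7, 191 kb measured as the gap and 188 kb with ZT6 read as ZT18, and that of lost pairs 149, 163 and 188 kb, so the longer reach of gained pairs was absent under the last. The share of promoters with a net loss at acrophase ZT0 was 43.6% for intron-level genes and 43.1% with ZT6 read as ZT18, and at acrophase ZT18 41.8% under the latter. With ZT6 read as ZT18, the median GC content was 43.6% for gained-only and 43.4% for lost-only ends, so the lower value of gained-only ends was absent.

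Of 73 net changes of lists, families, windows and named promoters, 70 kept their direction with lists of equal length, where endothelial markers had no net change, 67 with a score of 7 or more, where Per1 and Bhlhe41 had none, 73 counted from the fragment listed first and 63 with ZT6 read as ZT18. With equal lengths, hepatocyte transcription factors and amino acid genes each had a net gain of 2. From a score of 7, insulin signalling had a net gain of 2, amino acid genes of 3, endothelial markers of 5 and cholangiocyte markers of 1. With ZT6 read as ZT18, net changes were 2 for plasma proteins, 16 for endothelial markers, -68 for olfactory receptors, -20 for replication histones, 11 for the window of chromosome 7 from 31000001, -3 for Nfil3, 4 for Rbm3, -3 for Gm757, 1 for Creld2 and 7 for Hras1; the cause was not tested. One-sided pairs had mostly low scores, and 58.9% of ZT18 pairs with a score from 5 to 6 were absent at ZT0.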
